A study of Mus musculus with 6 samples.

Results

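The 10 genes described here encode the transcription factor NRF2 (*Nfe2l2*), the adaptor that restrains it (*Keap1*) and 8 antioxidant enzymes whose genes are known targets of NRF2 (*Nqo1*, *Hmox1*, *Gclc*, *Gclm*, *Txnrd1*, *Srxn1*, *Gsr* and *Prdx1*). They were taken by symbol from a gene expression table with values for 20856 genes, and all 10 were among the 11617 genes expressed highly enough to be tested. Expression was measured by RNA-seq in 6 cell lines established from mouse liver tumors, 3 per genotype. Tumors arose in young adult female C57BL/6 mice after hydrodynamic tail vein injection of a *Myc* transposon together with the plasmid px330, which carries Cas9 and a single guide RNA against either *Trp53* (*Myc*; sg*Trp53*, labelled Myc;sgp53/Cas9) or *Kmt2c* (*Myc*; sg*Kmt2c*, labelled Myc;sgMll3/Cas9). *Kmt2c* encodes the histone methyltransferase MLL3 and *Trp53* the tumor suppressor p53. Every line thus carries the *Myc* transgene and an edited tumor suppressor gene, and neither genotype stands for unedited cells. The lines are not isogenic. Cas9 was delivered transiently, so each line keeps whatever indels its founder cells acquired, and the study describes a *Kmt2c* indel that was heterozygous. The cells were grown on collagen in serum without further treatment and were passaged until no fibroblasts were visible. According to the study each line of a genotype came from a separate mouse. The library names of sg*Kmt2c* replicates 2 and 3 share a number, however, and what it stands for is not given in the sources used here. These replicates were therefore also averaged as a single sample in an alternative. The p-values measure the spread between the lines of a genotype, taken as separate.

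In an unstressed cell KEAP1 binds NRF2 in the cytoplasm and presents it to a CUL3 ubiquitin ligase, so that NRF2 is degraded as it is made. Electrophiles and oxidants modify cysteines of KEAP1, NRF2 then accumulates in the nucleus, pairs with a small MAF protein and binds antioxidant response elements in the promoters of its target genes. The system is therefore controlled mainly at the protein level, which RNA-seq does not measure, and its activity is usually read from the targets. In the liver it protects hepatocytes from reactive metabolites, and mutations of *NFE2L2* and *KEAP1* recur in hepatocellular carcinoma.

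The proximal promoters of 7 of the 10 genes could be matched by symbol in RefSeq (GRCm38.p6, 250 bases before to 50 bases after each annotated start, 9 windows for 7 genes). *Hmox1*, *Gclc* and *Gsr* had no entry. The core of the antioxidant response element, TGACNNNGC on either strand, occurred in 5 of the 9 windows, each of another gene (*Nfe2l2*, *Gclm*, *Txnrd1*, *Srxn1* and *Prdx1*), compared with 12.4% of all 32851 windows. The shorter core TGACTCA, which small MAF and AP-1 proteins can share, was searched after the sequences had been seen. It occurred at a pair of positions each in *Srxn1* and *Prdx1* and in 5.2% of all windows, and in *Prdx1* one of the matches overlaps the longer core. The windows of 3 genes to which the expression results below return are shown from 5′ to 3′ on the strand of the gene, with matches to either core in capitals. They are the factor itself, whose lines did not overlap between the genotypes, *Gclm*, whose lines did, and *Srxn1*, which was high in a single line. A match is a description of the letters and not a bound site.
*Nfe2l2* promoter, chr2:75704614-75704913, minus strand: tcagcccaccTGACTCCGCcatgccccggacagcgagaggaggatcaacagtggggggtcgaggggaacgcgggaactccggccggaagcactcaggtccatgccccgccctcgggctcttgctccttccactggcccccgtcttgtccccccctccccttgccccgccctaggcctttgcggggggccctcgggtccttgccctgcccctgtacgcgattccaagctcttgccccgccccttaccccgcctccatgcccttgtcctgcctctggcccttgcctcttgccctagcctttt
*Gclm* promoter, chr3:122245307-122245606, plus strand: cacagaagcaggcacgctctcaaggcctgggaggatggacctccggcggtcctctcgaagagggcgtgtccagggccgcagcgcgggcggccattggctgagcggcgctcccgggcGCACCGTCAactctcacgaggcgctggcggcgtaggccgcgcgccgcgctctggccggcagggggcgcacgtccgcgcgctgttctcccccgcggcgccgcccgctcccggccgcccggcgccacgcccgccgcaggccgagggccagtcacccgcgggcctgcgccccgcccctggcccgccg
*Srxn1* promoter, chr2:152105274-152105573, plus strand: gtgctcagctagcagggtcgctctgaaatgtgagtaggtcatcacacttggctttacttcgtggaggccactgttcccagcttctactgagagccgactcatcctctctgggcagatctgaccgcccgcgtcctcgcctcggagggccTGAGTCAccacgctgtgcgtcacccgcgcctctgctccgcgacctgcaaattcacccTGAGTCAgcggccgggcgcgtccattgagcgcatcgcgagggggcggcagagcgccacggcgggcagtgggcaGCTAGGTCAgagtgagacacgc
In *Nfe2l2* the match begins 240 bases before the start site. In *Gclm* it begins 134 bases before it and lies on the opposite strand. In *Srxn1* both copies of the short core lie upstream of the start and the longer core lies downstream of it.

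Between 3680068 and 6878625 reads per line were counted on genes, with fewer in each sg*Kmt2c* line than in any sg*Trp53* line. *Trp53* itself was at 17.2, 17.6 and 19.4 RPKM (reads scaled to transcript length and library total) in sg*Trp53* cells, compared with 92.2, 124 and 121 RPKM in sg*Kmt2c* cells, which matched the labels, whereas the *Kmt2c* transcript overlapped between the genotypes (18.4 to 24.2 against 9.51 to 24.97 RPKM) and its level does not check the edit. sg*Kmt2c* replicate 1 stood apart from the rest. Its summed RPKM was 1225 over 5 hepatocyte markers and 5811 over 5 epithelial markers, compared with 2.04 to 173 and 62.6 to 990 in the other lines, and it was the highest line for each of these 10 markers. Most of its hepatocyte sum was *Hnf4a*, at 1186 RPKM (2409 reads). *Afp*, *Ttr* and *Apoa1* were at 19.3, 14.1 and 1.44 RPKM (190, 81 and 7 reads). *Hnf4a* was also most of the 173 RPKM of sg*Kmt2c* replicate 3, at 170 RPKM. RPKM depends on the transcript length listed for each gene, so the sums weight genes unequally and levels of different genes are not directly comparable. Albumin was near the floor everywhere (0.644 to 4.36 RPKM). Fibroblast markers summed to 0.282 RPKM in sg*Kmt2c* replicate 1, to 15.01, 986 and 164 RPKM for sg*Trp53* and to 149 and 110 RPKM in the other sg*Kmt2c* lines. The highest of these sums, that of sg*Trp53* replicate 2, was mostly *Col3a1* (814 RPKM), whereas *Dcn* was lower there than in the other sg*Trp53* lines (0.897 against 7.39 and 8.16 RPKM). The same line had the lowest epithelial sum, 62.6 RPKM, compared with 990 and 723 RPKM in the other sg*Trp53* lines. Summed over 5 immune markers the sg*Trp53* lines reached 21.7 to 58.2 RPKM and the sg*Kmt2c* lines 5.51 to 15.2 RPKM. Most of the sg*Trp53* sums was *Lyz2*, at 17.1 to 45.3 RPKM there and 0 to 12.4 RPKM in sg*Kmt2c* lines. Of the 5 markers, 3 did not overlap between the genotypes. *Cd68* overlapped (2.60 to 7.60 against 1.71 to 5.35 RPKM), and *Ptprc* was at 0.0655 RPKM or less in every line. The 4 endothelial markers summed to at most 0.284 RPKM. Fewer cells of a type and less RNA per cell cannot be told apart in bulk RNA.

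None of the 10 genes passed an adjusted p-value of 0.05 between the genotypes (limma on log2(RPKM + 1), Benjamini-Hochberg over all genes tested), a threshold that 0.129% of all genes passed in either direction. At an unadjusted p under 0.05, *Gclc* and *Nfe2l2*, 2 of the 10, had higher values in sg*Kmt2c*, as did 3.25% of all genes, and 0 of the 10 had lower values, as did 5.34% of all genes. The same 2 genes were the only members whose lines did not overlap between the genotypes, both higher in sg*Kmt2c*. Of all genes tested, 5.72% were without overlap and higher and 10.4% without overlap and lower. The count of 2 fell to 1 when any sg*Trp53* line or sg*Kmt2c* replicate 3 was left out, since *Gclc* stayed under 0.05 in each of the 17 alternative analyses and *Nfe2l2* in 9 of its 17. Over the fits with 1 line left out, 2.1% to 4.19% of all genes were higher at that p. The median log2 fold change of the 10 genes was 0.09, beside -0.09 for all genes tested.

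**Figure D1:**
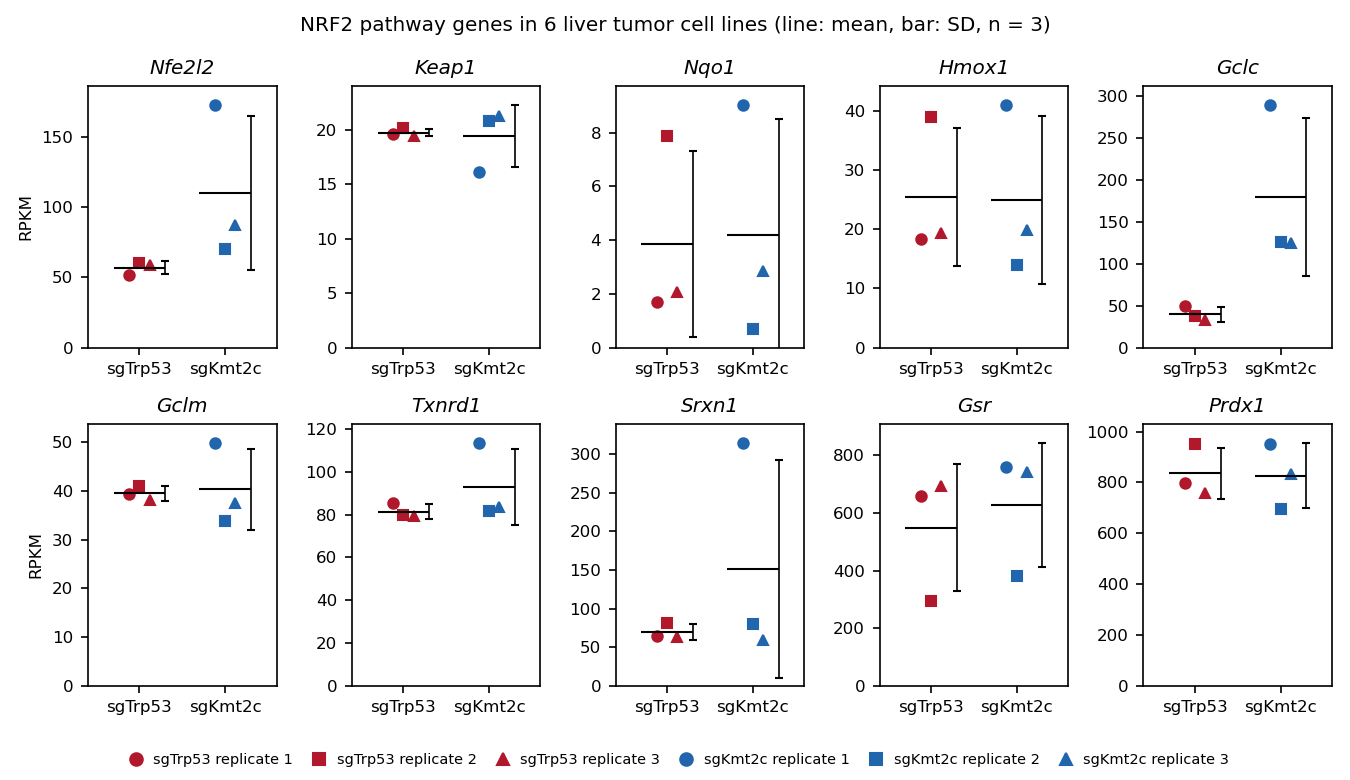
RPKM (vertical axes, each from 0) of the 10 genes in each line, with points for single lines, a horizontal bar for the mean of a genotype and a vertical bar for its SD (n = 3, cut at 0 for *Nqo1*). *Gclc* and *Nfe2l2* are the panels in which all sg*Kmt2c* lines lie above all sg*Trp53* lines, and the circle of sg*Kmt2c* replicate 1 is the top point in 8 of the 10 panels.

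*Nfe2l2*, which encodes the factor, lies at chr2:75675513-75704641 (GRCm38). It was at 51.5, 60.1 and 59.1 RPKM (sg*Trp53*) versus 173, 70.03 and 87.5 RPKM (sg*Kmt2c*), from 639 to 2016 reads per line. Triplets of values are given here and below in the order of replicates 1, 2 and 3. All sg*Kmt2c* lines were above all sg*Trp53* lines, but replicate 1 was well above the other sg*Kmt2c* lines. The means were 56.9 ± 4.70 and 110 ± 55.0 RPKM (SD, n = 3 each), with a log2 fold change of 0.83 (standard error 0.342, 95% confidence interval 0.02 to 1.65, unadjusted p = 0.0465, adjusted p = 0.579 from limma). The exact two-sided permutation test gave p = 0.1, the smallest value that 3 lines against 3 allow. Without sg*Kmt2c* replicate 1 the log2 fold change was 0.46, so that line carried much of the difference.

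*Keap1*, at chr9:21229730-21239332, encodes the adaptor. It varied little, at 19.7, 20.2 and 19.5 RPKM (sg*Trp53*) versus 16.2, 20.8 and 21.3 RPKM (sg*Kmt2c*). The lowest of the 6 values was that of sg*Kmt2c* replicate 1, the line with the highest *Nfe2l2*. Between the genotypes the log2 fold change was -0.03 (95% confidence interval -0.50 to 0.44, adjusted p = 0.960 from limma), an interval that leaves out a doubling and a halving. An overlapping gene model, *Gm16754*, held at most 12 reads in any line, compared with 240 to 423 for *Keap1*.

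Taken within each line, the ratio of *Nfe2l2* to *Keap1* RPKM does not depend on how libraries are scaled. It was 2.62, 2.98 and 3.03 (sg*Trp53*) versus 10.7, 3.36 and 4.11 (sg*Kmt2c*). Every sg*Kmt2c* line had a higher ratio than every sg*Trp53* line. On the log2 scale the means were 1.52 ± 0.116 and 2.40 ± 0.892 (SD, n = 3), a difference of 0.88 (exact two-sided permutation p = 0.1, and 0.1 after adjustment over the 2 ratios examined), which fell to 0.37 without sg*Kmt2c* replicate 1.

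Glutamate-cysteine ligase makes the first and rate-limiting product of glutathione synthesis and is a dimer of a catalytic subunit (*Gclc*, chr9:77754535-77794485) and a modifier subunit (*Gclm*, chr3:122245557-122270732), both textbook NRF2 targets. The catalytic transcript was higher in every sg*Kmt2c* line than in any sg*Trp53* line, and the modifier transcript overlapped. *Gclc* was at 49.7, 37.5 and 32.4 RPKM (sg*Trp53*) versus 289, 126 and 125 RPKM (sg*Kmt2c*), from 683 to 4667 reads. The lowest sg*Kmt2c* line was above the highest sg*Trp53* line with a wide gap, and sg*Kmt2c* replicates 2 and 3 were almost level. Mean RPKM was 39.9 ± 8.89 against 180 ± 94.6 (SD, n = 3), a ratio of 4.52. The log2 fold change of 2.05 (standard error 0.371, 95% confidence interval 1.16 to 2.94, unadjusted p = 0.00104) did not pass adjustment (adjusted p = 0.202 from limma, between 0.106 and 0.687 in the alternatives), and the exact two-sided permutation test gave p = 0.1, its smallest possible value. Without sg*Kmt2c* replicate 1 it was 1.65, and replicates 2 and 3 alone averaged 3.15 times the sg*Trp53* mean.

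*Gclm* was at 39.3, 41.1 and 38.1 RPKM (sg*Trp53*) versus 49.7, 33.8 and 37.5 RPKM (sg*Kmt2c*), where the highest and the lowest of all 6 values both fell. Its log2 fold change was 0.01 (95% confidence interval -0.47 to 0.50, adjusted p = 0.987 from limma), which again leaves out a 2-fold difference. Its annotated span overlaps *Gm17494*, which held at most 10 reads.

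The ratio of *Gclc* to *Gclm* was 1.27, 0.913 and 0.852 (sg*Trp53*) versus 5.82, 3.73 and 3.33 (sg*Kmt2c*). These sets were far apart relative to their spread. Mean log2 ratios of -0.01 ± 0.305 and 2.06 ± 0.425 (SD, n = 3) differed by 2.07 (exact two-sided permutation p = 0.1, 0.1 after adjustment over the 2 ratios), and by 1.83 to 2.24 with any single line left out. Both genes had at least 683 reads in every line, so counting error is small beside this difference.

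**Figure D2:**
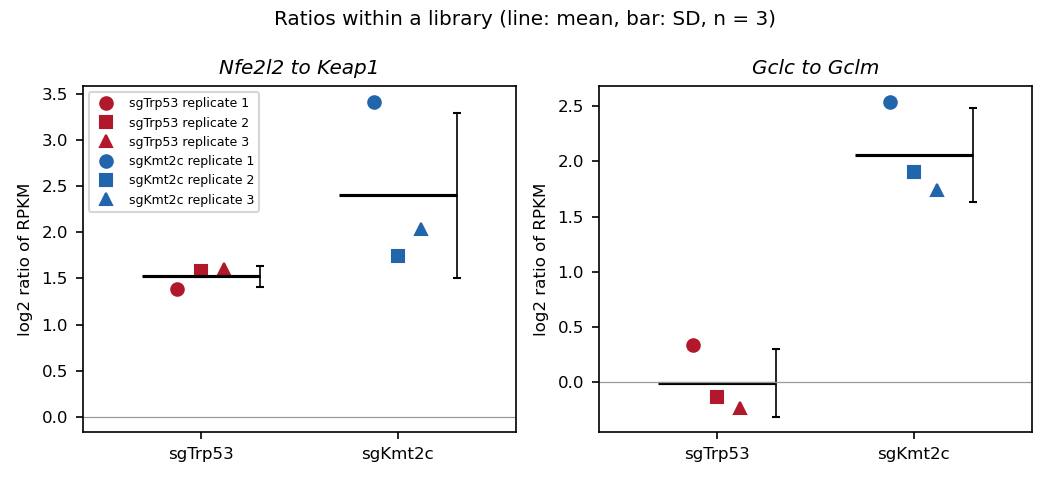
Log2 ratio of RPKM within each line for *Nfe2l2* to *Keap1* (left) and *Gclc* to *Gclm* (right), with points for lines, horizontal bars for the mean and vertical bars for the SD of each genotype (n = 3). In both panels the sg*Kmt2c* lines lie above the sg*Trp53* lines, by a mean of 0.88 on the left, where replicate 1 is far above the other lines, and of 2.07 on the right.

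*Gsr* (chr8:33652523-33698163) encodes glutathione reductase, which returns oxidized glutathione to its reduced form. It was at 658, 295 and 693 RPKM (sg*Trp53*) versus 760, 380 and 742 RPKM (sg*Kmt2c*). One line of each genotype, replicate 2 in both, was low, and the genotypes overlapped (log2 fold change 0.22, 95% confidence interval -0.80 to 1.25, adjusted p = 0.880 from limma).

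*Txnrd1* (chr10:82859206-82897724) encodes cytosolic thioredoxin reductase, of the thioredoxin branch of the system. It was at 85.2, 79.6 and 79.3 RPKM (sg*Trp53*) versus 113, 81.5 and 83.5 RPKM (sg*Kmt2c*). All but sg*Kmt2c* replicate 1 lay within a narrow band. The log2 fold change was 0.17 (95% confidence interval -0.29 to 0.63, adjusted p = 0.792 from limma) and 0.02 without that line.

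*Prdx1* (chr4:116685544-116700822) encodes an abundant peroxiredoxin that reduces hydrogen peroxide. At 798, 950 and 757 RPKM (sg*Trp53*) versus 949, 695 and 833 RPKM (sg*Kmt2c*) it overlapped fully between the genotypes (log2 fold change -0.02, 95% confidence interval -0.52 to 0.48, adjusted p = 0.978 from limma). Processed copies of this gene exist in the genome, so some of its reads may be shared with them.

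*Srxn1* (chr2:152105516-152111376) encodes sulfiredoxin, which repairs overoxidized peroxiredoxins. It was at 64.3, 81.8 and 63.1 RPKM (sg*Trp53*) versus 314, 80.3 and 59.8 RPKM (sg*Kmt2c*). A single line, sg*Kmt2c* replicate 1, was high, at 4.48 times the mean of the other sg*Kmt2c* lines, and the other 5 lines were similar. The log2 fold change of 0.72 (95% confidence interval -0.70 to 2.14, adjusted p = 0.731 from limma) became 0.00085 without it.

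*Nqo1* and *Hmox1*, often used as readouts of NRF2 activity, did not separate the genotypes. *Nqo1* (chr8:107388225-107403206), a quinone reductase, was at 1.69, 7.87 and 2.06 RPKM (sg*Trp53*) versus 9.02, 0.699 and 2.86 RPKM (sg*Kmt2c*), from only 4 to 66 reads. sg*Trp53* replicate 2 and sg*Kmt2c* replicate 1 were high, and the highest line exceeded the lowest 12.9-fold, the widest range among the 10 genes. Its log2 fold change of -0.05 had a 95% confidence interval of -1.84 to 1.74 (adjusted p = 0.987 from limma), which includes differences of 2-fold and more in both directions.

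*Hmox1* (chr8:75093591-75100596) encodes heme oxygenase 1. It was at 18.3, 39.0 and 19.3 RPKM (sg*Trp53*) versus 41.0, 14.0 and 19.96 RPKM (sg*Kmt2c*). The same lines as for *Nqo1* were high, 1 of each genotype, and the remaining 4 lay between 14.0 and 19.96 RPKM. The log2 fold change was -0.08 (95% confidence interval -1.18 to 1.02, adjusted p = 0.958 from limma).

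**Figure D3:**
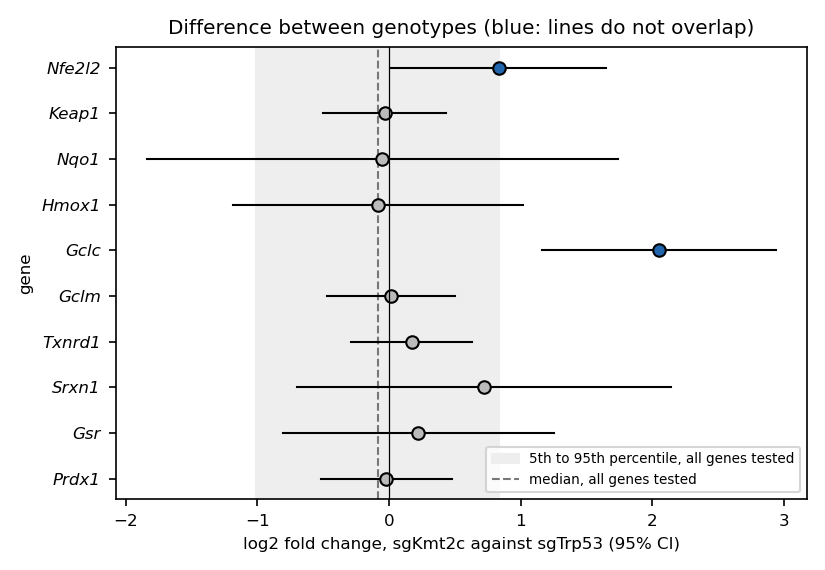
Log2 fold change of sg*Kmt2c* against sg*Trp53* lines (horizontal axis) with its 95% confidence interval for each gene, the middle 90% of all genes tested in grey and their median dashed. *Gclc* at 2.05 lies outside the grey band, *Nfe2l2* at 0.83 lies at its edge, and the other 8 genes lie inside it with intervals that include 0.

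Across lines the most regular feature was the position of sg*Kmt2c* replicate 1. It was the highest of the 6 lines for 8 of the 10 genes and for 7 of the 8 targets. The exceptions were *Prdx1*, highest in sg*Trp53* replicate 2, and *Keap1*, of which that line had the least. Among all genes tested it was the highest line for 23.6% and the lowest for 35.9%. Its lead over the next line was small for *Nqo1* (9.02 against 7.87 RPKM), *Hmox1* (41.0 against 39.0 RPKM) and *Gsr* (760 against 742 RPKM). Each target was then centred on its mean log2(RPKM + 1) over the 6 lines, and the median of the 8 targets was taken per line. This median was 0.62 in sg*Kmt2c* replicate 1, -0.23 and -0.06 in sg*Kmt2c* replicates 2 and 3, and -0.19, -0.03 and -0.19 in the sg*Trp53* lines. By this measure the other sg*Kmt2c* lines lay in the range of the sg*Trp53* lines or just below it. The hepatocyte and epithelial markers given above were highest and the fibroblast markers lowest in sg*Kmt2c* replicate 1, and their part in these values was not tested. In sg*Trp53* replicate 2, also high for *Nqo1* and *Hmox1* and lowest for *Gsr*, the epithelial sum was the lowest and the fibroblast sum the highest. The part of these was not tested either.

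Leaving that line out, with the lines of the genotypes compared for overlap again, *Gclc*, *Nfe2l2* and *Keap1* were higher without overlap in the remaining sg*Kmt2c* lines and *Gclm* was lower without overlap, so 3 genes were higher and 1 was lower. Of all genes tested, 10.9% were then without overlap and higher and 15.9% without overlap and lower, a background that is higher because 2 lines are compared with 3. The margins for *Keap1* and *Gclm* were small, 20.8 RPKM against 20.2 RPKM and 37.5 RPKM against 38.1 RPKM at the nearest lines.

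**Figure D4:**
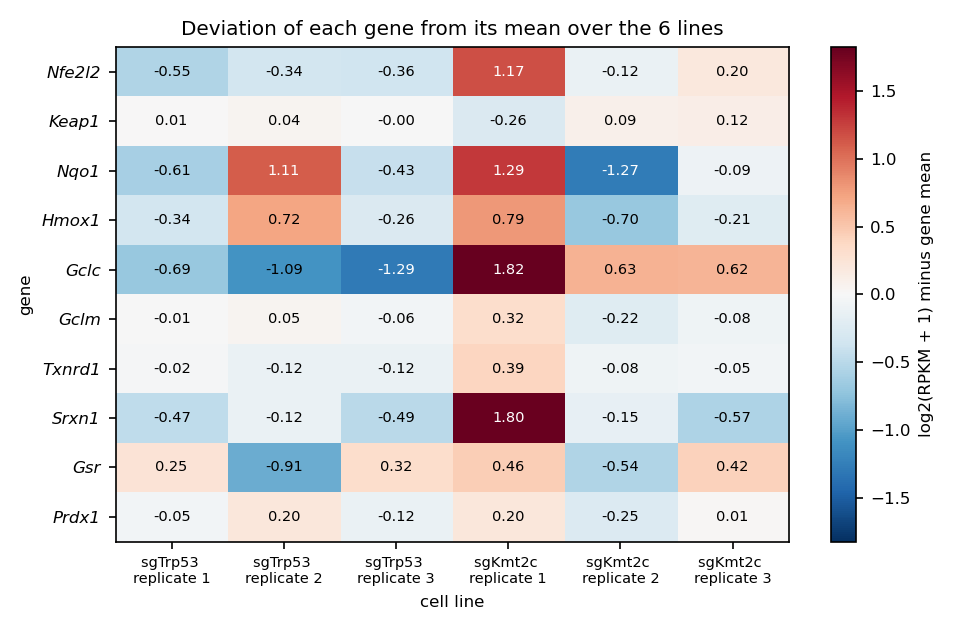
Log2(RPKM + 1) of each gene (rows) in each line (columns) minus the mean of that gene over the 6 lines, printed in each cell and coloured from blue (low) to red (high). The column of sg*Kmt2c* replicate 1 is red for every gene except *Keap1* (-0.26), and *Gclc* is the row in which all sg*Kmt2c* lines are red and all sg*Trp53* lines blue.

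Levels of different genes depend on the single transcript length by which each was divided. The listed lengths of *Gsr* (347 bases), *Srxn1* (446) and *Prdx1* (636) are far shorter than the longest transcripts of these genes in GENCODE M1 (2673, 2812 and 2294 bases), so their RPKM values are high for that reason in part. With reads divided by the longest transcript, the median over the 6 lines was 226 RPKM for *Prdx1*, 87.7 for *Gsr*, 87.3 for *Gclc*, 77.6 for *Txnrd1*, 65.1 for *Nfe2l2*, 44.7 for *Gclm*, 19.6 for *Hmox1*, 14.0 for *Keap1*, 11.5 for *Srxn1* and 2.46 for *Nqo1*. Comparisons of a gene between lines do not change with its length.

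The wider pathway was followed in a list of 72 further genes, of which 68 could be tested. *Nfe2*, *Nfe2l3*, *Gpx2* and *Gpx7* were too low. No gene of the list passed the adjusted threshold (smallest adjusted p = 0.226 from limma), 5 were higher and 2 lower at an unadjusted p under 0.05, and 10 were higher and 3 lower without overlap between the genotypes. At that p the shares were 7.35% higher and 2.94% lower, beside 3.25% and 5.34% of all genes, and without overlap they were 14.7% and 4.41%, beside 5.72% and 10.4%. Fold changes were above 0 in 45 of the 68 genes (66.2%), compared with 42% of all genes. The median log2 fold change was 0.21. Leaving out sg*Kmt2c* replicate 1 gave 6 higher and 4 lower at an unadjusted p under 0.05, where 3.94% and 5.31% of all genes were higher and lower in the same fit. Leaving out replicate 2 gave 8 and 4 (3.74% and 5.11% of all genes), and leaving out replicate 3 gave 10 and 2 (4.19% and 8.52%). The counts were 4 and 1 without sg*Trp53* replicate 2 (2.13% and 3.42% of all genes) and also without sg*Trp53* replicate 3 (2.1% and 2.75%). With sg*Kmt2c* replicate 1 left out, 11 of the 68 were higher and 10 lower without overlap, compared with 10 and 3 for all lines. Of all genes, 10.9% and 15.9% were then higher and lower without overlap.

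Of 14 tested partners and regulators of NRF2, 1 was higher, 1 lower and 12 neither at an unadjusted p under 0.05. *Mafk*, a small MAF partner, was at 12.4, 8.38 and 13.1 RPKM (sg*Trp53*) versus 16.2, 24.7 and 18.3 RPKM (sg*Kmt2c*) (log2 fold change 0.76, adjusted p = 0.528 from limma). *Bach2*, a repressor that competes for the same elements, was at 5.61, 4.04 and 2.83 RPKM against 0, 1.099 and 0.527 RPKM (log2 fold change -1.77, adjusted p = 0.316 from limma), with no read in sg*Kmt2c* replicate 1. Neither gene overlapped between the genotypes.

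Among the 14 tested genes of glutathione synthesis, supply and peroxidases, 1 was higher, 0 lower and 13 neither. *Glrx3*, a monothiol glutaredoxin, was at 59.5, 52.1 and 56.9 RPKM (sg*Trp53*) versus 70.8, 75.1 and 111 RPKM (sg*Kmt2c*) (log2 fold change 0.57, adjusted p = 0.566 from limma). Here sg*Kmt2c* replicate 3 was the highest line.

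Among 12 genes of the thioredoxin and peroxiredoxin system 1 was higher and 11 were neither. *Sesn2*, encoding sestrin 2, which is also a p53 target, was at 6.51, 5.52 and 6.47 RPKM (sg*Trp53*) versus 22.5, 11.9 and 18.6 RPKM (sg*Kmt2c*) (log2 fold change 1.34, adjusted p = 0.294 from limma). All 3 sg*Kmt2c* lines were clearly above the tight set of sg*Trp53* lines. Of 6 genes that supply NADPH, *Taldo1* (transaldolase, of the pentose phosphate pathway) was higher at 117, 60.5 and 86.6 RPKM compared with 49.1, 43.9 and 45.9 RPKM in the sg*Trp53* lines (log2 fold change 0.86, adjusted p = 0.461 from limma), and the other 5 were neither.

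Of 11 detoxification and other target genes, 1 was higher, 1 lower and 9 neither. *Ephx1*, microsomal epoxide hydrolase, was at 55.2, 76.8 and 15.8 RPKM (sg*Trp53*) versus 300, 474 and 286 RPKM (sg*Kmt2c*). At 3.04 (standard error 0.571), its log2 fold change was the largest of the list (adjusted p = 0.226 from limma), and sg*Kmt2c* replicate 2 was the highest line. *Cbr1*, a carbonyl reductase, was at 19.6, 18.2 and 15.7 RPKM against 0.686, 11.6 and 5.11 RPKM (log2 fold change -1.89, adjusted p = 0.542 from limma), with the lowest value in sg*Kmt2c* replicate 1. None of the 7 genes of heme and iron handling and none of the 4 superoxide dismutase and catalase genes had an unadjusted p under 0.05.

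**Figure D5:**
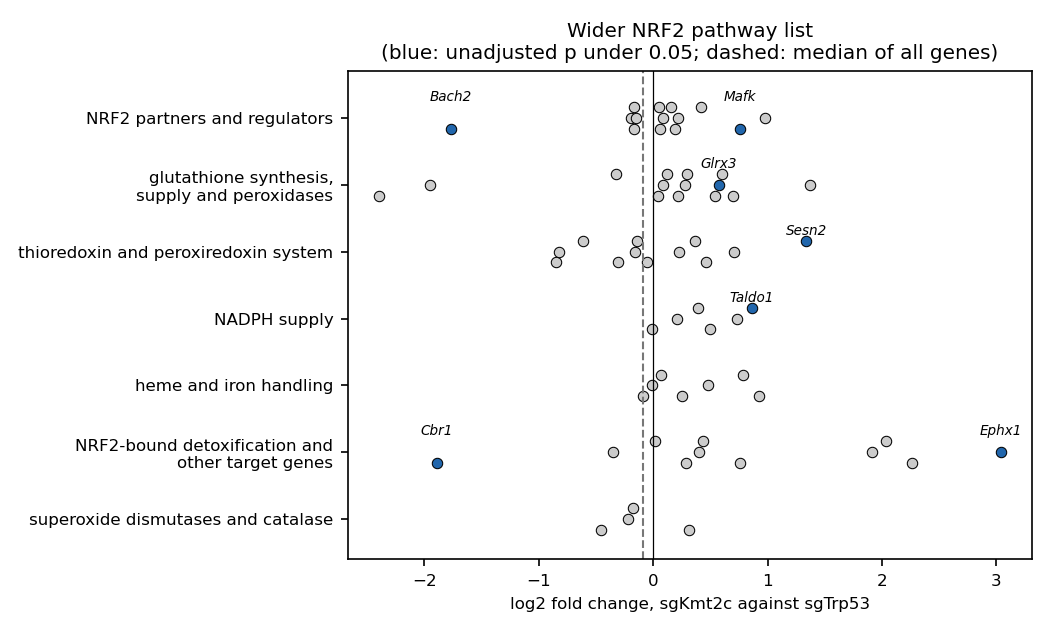
Log2 fold change of sg*Kmt2c* against sg*Trp53* lines (horizontal axis) for the 68 tested genes of the wider list by function, as points spread vertically for legibility, with blue for an unadjusted p under 0.05 and the median of all genes dashed. The 7 blue points are *Ephx1*, *Sesn2*, *Taldo1*, *Mafk* and *Glrx3* on the right and *Bach2* and *Cbr1* on the left, and none passed adjustment.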

How the data were processed

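RNA-seq libraries (TruSeq RNA v2) of 3 *Myc*; sg*Trp53* and 3 *Myc*; sg*Kmt2c* lines were compared, grouped by the sample labels. All libraries shared the lanes of a flow cell. Batches of culture, extraction or library preparation are not given in the sources used here and were not tested. The authors used Trimmomatic for trimming, STAR for alignment to GRCm38 and HTSeq for counting. The deposited values are RPKM and divide by 1 transcript length per gene. Use of strand in counting is not given in the sources used here, so overlapping genes are uncertain. The deposited table has 21065 rows, 209 of them without values, and 6 columns of other samples that were not used. A deposited table of the authors' DESeq2 1.8.2 comparison (fold changes and p-values) was not used.

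RPKM times length came in whole steps for 100% of values (within 0.01 read), which gave reads per gene and line. Replicates differed well beyond sampling noise (chi-square per gene 28.5 to 85.6). limma 3.58.1 in R 4.3.3 (eBayes with trend) was run on log2(RPKM + 1) over genes that reached an RPKM of 1 in 3 or more lines, with genotype as the only term, because the deposited unit is not counts. A fold on this scale understates changes of low genes. The script was tested on simulated data. Exact permutation tests were two-sided. Plots were drawn with matplotlib 3.10.9. Alternatives changed the pseudocount, filter, scaling, moderation, test (voom on the recovered reads), block and lines. All 10 genes are named, as are the genes of the wider list at an unadjusted p under 0.05 (up to 3 per group), those too low to test, and *Trp53* and *Kmt2c*. The genes and lists were chosen with earlier results of these data known.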

Additional observations from a re-analysis of the deposited data

How the results depend on the processing

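The number of the 10 genes past an adjusted p of 0.05 was 0 in every alternative, as it was for the wider list (limma or voom). In several alternatives no gene of all those tested passed, so a count of 0 says nothing about the members there. These were the fits without any single sg*Trp53* line and those without sg*Kmt2c* replicate 2 or 3. The fits with replicates 2 and 3 averaged and with a replicate block were also among them. In the other alternatives 4 to 40 of all genes passed. Of 169 recomputed fold changes of the 10 genes, 149 kept their direction and 20 reversed. The reversals were all in *Keap1*, *Nqo1*, *Hmox1*, *Gclm*, *Gsr* or *Prdx1*, with log2 fold changes from -0.08 to 0.22 in the main fit. *Txnrd1*, at 0.17, did not reverse. The reversed log2 values were -0.015 for *Gclm* with TPM, 0.0093 for *Keap1* and 0.12 for *Nqo1* with quantile normalization, 0.042 for *Keap1*, 0.010 for *Nqo1* and 0.059 for *Prdx1* with median-of-ratios scaling, and 0.28 for *Nqo1*, 0.12 for *Hmox1* and 0.032 for *Prdx1* with sg*Kmt2c* replicates 2 and 3 averaged as a single sample. When single lines were left out, log2 fold changes ran from -0.10 to 0.088 for *Keap1*, from -0.71 to 0.57 for *Nqo1*, from -0.50 to 0.26 for *Hmox1*, from -0.14 to 0.13 for *Gclm*, from -0.17 to 0.55 for *Gsr* and from -0.13 to 0.10 for *Prdx1*. The count of the 10 genes higher at an unadjusted p under 0.05 was 1 instead of 2 without the filter, with TPM and with eBayes without trend, and 1 to 2 with a line left out. The median log2 fold change of the 10 genes ran from 0.011 to 0.40 when single lines were left out. For the wider list the count higher at that p was 8 with quantile normalization (4.31% of all genes were higher and 4.01% lower in that fit, beside 3.25% and 5.34%) and 4 to 10 with a line left out (2.1% to 4.19% of all genes higher). The count lower was 1 without the filter (5.1% of all genes), 0 when all 6 lines had to reach an RPKM of 1 (4.61%), 4 with replicates 2 and 3 averaged (5.64%) and 1 to 4 with a line left out (2.75% to 8.52%). The cause of these shifts was not tested. *Nqo1* could not be tested with an RPKM of at least 1 required in all 6 lines. Deviations of same-numbered lines correlated at 0.192, 0.399 and 0.0316 across genes, and those of differently numbered lines at -0.284 to 0.152. The lines numbered 2, with the correlation of 0.399, also had the lowest hepatocyte (4.89 and 2.04 RPKM) and epithelial (62.6 and 237 RPKM) marker sums. The part of this in the correlation was not tested. Whether the replicate numbers stand for anything shared is not given, and the main fit did not pair the lines. With the replicate number as a block, 1 of the 10 genes was higher at an unadjusted p under 0.05, and 0 of all genes passed adjustment instead of 15. Depth limits *Nqo1* most, with 4 to 66 reads. The overlap counts without sg*Kmt2c* replicate 1 and the search for TGACTCA were added after the data were seen.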

Other observations

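Further genes of the wider list are named here for the position of sg*Kmt2c* replicate 1. They were chosen after their values were seen and are no separate evidence for it. That line was the highest of the 6 for 37 of the 68 genes (54.4%) and the lowest for 14 (20.6%). It exceeded all other lines by more than 2-fold in 12 of the 68 (17.6%), compared with 5.14% of all genes tested, and lay below all others by more than 2-fold in 6 (8.82%), compared with 9.7%. *Gsta4*, a glutathione transferase that conjugates lipid aldehydes, was at 326 RPKM there and at 4.97 to 22.7 RPKM in the other lines. *Slc7a11*, the cystine importer that feeds glutathione synthesis, was at 167 RPKM and at 1.68 to 13.5 RPKM elsewhere. The aldo-keto reductase gene *Akr1c13* was at 115 RPKM compared with 2.01 to 13.7 RPKM, *Akr1b8* at 63.8 RPKM compared with 6.89 to 18.4 RPKM, and *Osgin1*, an oxidative stress induced growth inhibitor, at 107 RPKM compared with 2.72 to 22.6 RPKM. Genes of the list were low in this line as well. Among the 11 detoxification and other target genes it was the highest line for 7 and the lowest for 2. The latter were *Cbr1* and *Gstm1* (113 RPKM compared with 201 to 342 RPKM). *Gpx3*, a secreted glutathione peroxidase, had a single read there (0.256 RPKM) and 205 to 429 RPKM in the other lines, and *Gpx8* had no read there and 3.91 to 28.9 RPKM elsewhere. The same line had the highest hepatocyte and epithelial and the lowest fibroblast marker sums, and the part of these in the values above was not tested.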
